A study of Mus musculus with 15 samples.

Results

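The genes described here are 9 genes of heme synthesis and breakdown, Alas1, Alad, Uros, Urod, Cpox, Ppox, Fech, Hmox1 and Hmox2. They were taken by symbol from the table of normalized counts, and each had 1 row among the 27907 genes of the table. All 9 passed the filter on low values (2 normalized counts on average across the 15 ovaries) and so were among the 21525 genes tested. The rule took them by name and used no expression value, but the list was drawn up with earlier results of these data known. The study had already reported a cluster of heme biosynthesis genes among those upregulated in these libraries. The shares of members called below are therefore no independent support for that cluster.

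Ovaries were taken from 6-month-old female mice in estrus, and the RNA of each mouse was sequenced as 1 stranded mRNA library. The HSD17B1-KI group held 7 mice homozygous for a CRISPR/Cas9 point mutation, Ser143Ala, that replaces the active-site serine of HSD17B1, the enzyme that converts estrone to estradiol. The WT group held 8 wild-type females, and both genotypes came from crosses of heterozygous parents. The mutation is present in every cell of the body, so that effects arising in the ovary and outside it cannot be told apart in these samples. The libraries held between 26544745 and 72362981 reads counted on genes, with medians of 43611091 in HSD17B1-KI and 45313571.5 in WT. A normalized count is the number of reads on a gene divided by 1 size factor per library, and in whole ovary fewer cells of a type and less RNA per cell cannot be told apart. The mutation changes a codon and not the amount of the transcript, so the level of Hsd17b1, 11650 ± 4351 normalized counts in HSD17B1-KI and 8829 ± 2952 in WT (SD, n = 7 and n = 8), is no check of the labels. All 7 markers of oocytes were detected, and their summed level was 6638 to 11146 normalized counts in HSD17B1-KI and 7706 to 12715 in WT.

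Heme is an iron-containing ring that is built in a relay between the mitochondrion and the cytosol. ALAS1 joins glycine and succinyl-CoA in the rate-limiting step of non-erythroid cells, ALAD, UROS and UROD help to assemble and trim the ring in the cytosol, and CPOX, PPOX and FECH finish it in the mitochondrion, where FECH inserts the iron. HMOX1, which is inducible, and HMOX2, which is constitutive, open the ring and release iron, carbon monoxide and biliverdin. The ovary uses heme in the cytochrome P450 enzymes of steroid synthesis, among them CYP11A1, CYP17A1 and CYP19A1, whereas STAR, which carries cholesterol into the mitochondrion, and HSD3B1 contain no heme.

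Of the 9 genes, 7 had a log2 fold change above 0, and Hmox1, Alas1 and Fech were called higher in HSD17B1-KI by at least 1 tool. These are the inducible enzyme of breakdown and the first and last enzymes of synthesis. With limma-trend, Hmox1 passed an adjusted p of 0.05 and Alas1 and Fech did not, so that 1 of 9 genes was called higher, against 0.209% of all genes tested. With DESeq2 on the recovered reads, all 3 were called higher, 3 of 9 against 1.59% of the genes with an adjusted p-value. No member was called lower by either tool. At an unadjusted p under 0.05 limma-trend also gave these 3 of 9, against 5.36% of all genes in the same direction. The median log2 fold change of the 9 genes was 0.03, and that of all genes tested was -0.02. The 5 members that act between the ends of the pathway, Alad, Uros, Urod, Cpox and Ppox, were not called by any of these tests.

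**Figure D1:**
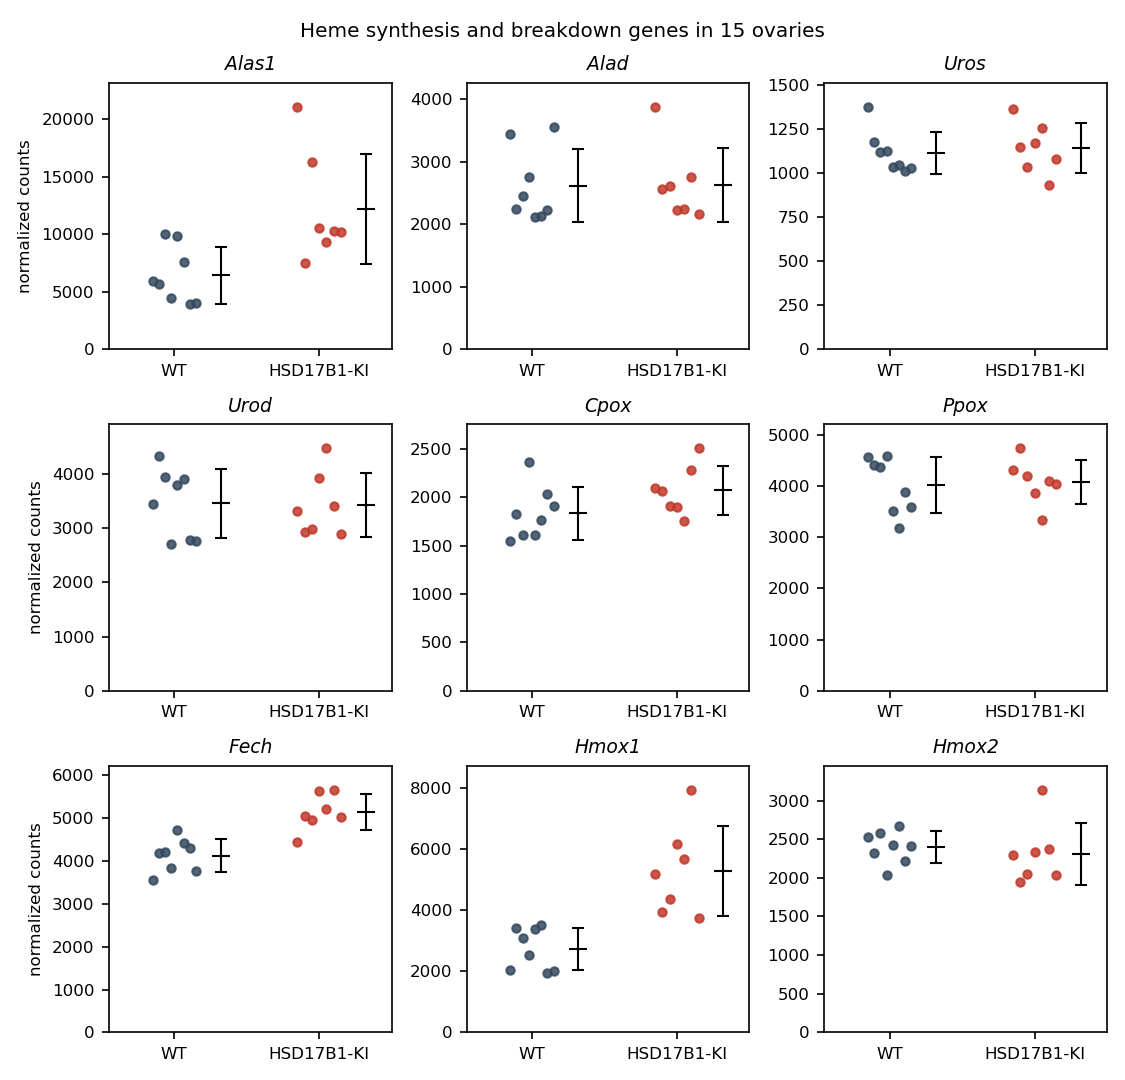
Normalized counts of the 9 genes, with 1 point per mouse, 8 WT and 7 HSD17B1-KI, in the order of the pathway and then of breakdown. The bar beside the points is the mean with its SD, and every axis starts at 0. All 7 HSD17B1-KI mice lie above all 8 WT mice for Hmox1, and the genotypes overlap for the other 8 genes.

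Sequence upstream of the start was looked at for the members with an entry among the RefSeq promoters (GRCm38.p6), which were 7 of 9 genes with 12 windows of 250 bases before a start. Hmox1 had no entry, and Fech was not used. Searched on both strands were the palindromic site of NRF1, a regulator of nuclear genes for mitochondrial proteins, whose letters are the capitals in the Alas1 and Uros sequences given here, the E-box CACGTG, the half-site of SF-1 (the product of Nr5a1, which drives steroid genes), AAGGTCA, and the core of the antioxidant response element, TGACNNNGC. No site found overlapped a site of another motif. The NRF1-type site was in 2 of the 12 windows, those of Alas1 and Uros, and in 3.74% of all 32851 windows. The E-box was in 4 windows, 2 of Alad and 1 each of Uros and Urod, and in 6.02% of all windows. AAGGTCA and TGACNNNGC were in 0 of the 12 windows and in 4.08% and 10.2% of all. Neither Hmox1 nor Fech had a window in this search, and only 250 bases before a start were searched. The 0 of 12 windows therefore says nothing of the last 2 motifs in those genes or farther upstream. Several windows of a gene overlap and share bases. The stretches of 30 bases below are shown because they hold the only sites in the rate-limiting gene Alas1, the 1 NRF1-type site of Uros, and the E-box of Urod, whose level was the one called with a steroid gene. Capitals mark the site, and all 3 genes lie on the minus strand and are written in the direction of transcription.
Alas1, chr9:106247935-106247964: gcttcggcgcGCGCGTGCGCgcggcaggcc
Alas1, chr9:106247906-106247935: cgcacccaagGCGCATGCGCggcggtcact
Uros, chr7:133709323-133709352: cggtcacactGCGCCTGCGCgagtcccgcc
Urod, chr4:116994445-116994474: cactggatcggtCACGTGgttctcaatatg
The Alas1 sites begin 224 and 195 bases before their start, the Uros site 47 bases and the Urod E-box 49 bases. The whole window of Urod, chr4:116994414-116994663, is given for the same reason, with the E-box in capitals.
Urod: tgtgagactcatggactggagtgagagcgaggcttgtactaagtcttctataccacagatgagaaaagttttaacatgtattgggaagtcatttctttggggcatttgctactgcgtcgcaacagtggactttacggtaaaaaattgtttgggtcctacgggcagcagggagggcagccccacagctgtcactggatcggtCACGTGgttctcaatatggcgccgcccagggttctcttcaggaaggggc
A match of letters is a description of the sequence and shows no binding.

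Alas1 (ENSMUSG00000032786, GRCm38 chromosome 9, 106233455 to 106248654, minus strand) encodes the rate-limiting enzyme of heme synthesis outside the erythroid lineage. Its level was 7474 to 21066 normalized counts among the HSD17B1-KI mice (median 10252). Among the WT mice it was 3881 to 10042 normalized counts, with a median of 5789. The groups overlapped: 5 of 7 HSD17B1-KI mice lay above every WT mouse, and HSD17B1-KI 2 and HSD17B1-KI 5 lay within the WT range. The 2 highest mice were HSD17B1-KI 1 and HSD17B1-KI 3, and the mean was 1.90-fold that of WT. The log2 fold change was 0.93 ± 0.25 (SE), with a 95% interval of 0.40 to 1.46. The exact permutation test of this single gene over all 6435 splits of the mice, two-sided, gave p = 0.00497. After adjustment over all genes, limma gave an adjusted p of 0.155 and DESeq2 0.0256, and over the alternatives tried, left-out mice and the replicate block included, the adjusted p lay between 0.00583 and 0.408. The call of DESeq2 was kept in 9 of 15 fits that each left out 1 mouse. It was lost without HSD17B1-KI 1 (adjusted p = 0.104), HSD17B1-KI 3 (0.0752), WT 1 (0.0603), WT 2 (0.0605), WT 4 (0.0548) or WT 8 (0.064). The coefficient of variation of Alas1 over the 15 mice, which includes the difference between the genotypes, was 51.1%, that of Hmox1 43.4%, and those of the other 7 members 11.3% to 21.6%. An antisense gene, 4930500F10Rik, shares 465 exon bases with Alas1 and had 6.02 to 20.6 normalized counts.

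Alad (ENSMUSG00000028393, chromosome 4, 62509169 to 62519918), the zinc enzyme of the next step, had nearly the same mean in both genotypes. It stood at 2630 ± 593 normalized counts in HSD17B1-KI and 2614 ± 585 in WT (SD, n = 7 and n = 8). The log2 fold change was 0.01, and the 95% interval of limma ran from 0.816-fold to 1.25-fold.

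Uros (ENSMUSG00000030979, chromosome 7, 133686243 to 133710072), which closes the ring, was at 1140 ± 143 normalized counts in HSD17B1-KI and 1115 ± 121 in WT. Its interval ran from 0.898-fold to 1.16-fold. Urod (ENSMUSG00000028684, chromosome 4, 116989965 to 116994413), which removes carboxyl groups from the ring, was at 3419 ± 586 and 3454 ± 632 normalized counts, with an interval of 0.827-fold to 1.19-fold. The genotypes overlapped over nearly their whole range for both genes.

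Cpox (ENSMUSG00000022742, chromosome 16, 58670292 to 58717636), the first of the final mitochondrial enzymes, was at 1757 to 2506 normalized counts among the HSD17B1-KI mice (median 2068). Among the WT mice it was at 1548 to 2365 normalized counts, with a median of 1799. The WT mean was exceeded in 6 of 7 HSD17B1-KI mice, and the highest WT value in 1. The log2 fold change of 0.18 ± 0.10 did not pass the test (limma adjusted p = 0.555, DESeq2 0.469), and its 95% interval was -0.02 to 0.39. Ppox (ENSMUSG00000062729, chromosome 1, 171275990 to 171281186), which oxidizes protoporphyrinogen, was at 4080 ± 427 normalized counts in HSD17B1-KI and 4010 ± 543 in WT, with an interval of 0.892-fold to 1.17-fold. Ppox shares 791 exon bases with B4galt3 on the opposite strand, which had 2142 to 2803 normalized counts, and since it is not stated whether the counting used strand, reads there may be split between the genes.

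Fech (ENSMUSG00000024588, chromosome 18, 64452914 to 64490251), which inserts iron into protoporphyrin, had a small difference that was regular over the mice. Its level was 4437 to 5648 normalized counts among the HSD17B1-KI mice (median 5055). Among the WT mice it was 3542 to 4715 normalized counts, with a median of 4198. Of the HSD17B1-KI mice, 6 of 7 lay above every WT mouse, and HSD17B1-KI 1 lay below WT 5. The mean was 1.25-fold that of WT, and the log2 fold change was 0.32 ± 0.07 (SE), with a 95% interval of 0.17 to 0.47. The exact permutation test gave p = 0.000777, limma an adjusted p of 0.0776 and DESeq2 0.00300, and over the same alternatives the adjusted p lay between 0.000511 and 0.371. DESeq2 called Fech in 15 of 15 fits that left out 1 mouse, and limma in 0 of 15.

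Hmox1 (ENSMUSG00000005413, chromosome 8, 75093621 to 75100589, plus strand), the inducible heme oxygenase, was the member with the clearest separation of the genotypes. Its level was 3741 to 7937 normalized counts among the HSD17B1-KI mice (median 5186). Among the WT mice it was 1938 to 3506 normalized counts, with a median of 2813. Every HSD17B1-KI mouse lay above every WT mouse, which was so for 0.274% of all genes tested and for 1 of the 9 members. The mean was 1.93-fold that of WT, and the log2 fold change was 0.94 ± 0.18 (SE), with a 95% interval of 0.56 to 1.33. The exact permutation test gave p = 0.000155, the smallest that 6435 splits can give. The adjusted p was 0.0468 with limma, 0.0465 with edgeR and 0.000311 with DESeq2, and over the alternatives tried, left-out mice and the replicate block included, it lay between 0.000107 and 0.267. DESeq2 called it in 15 of 15 fits that left out 1 mouse. With limma, whose value lay close to 0.05, the call was kept in 2 of 15 such fits, without HSD17B1-KI 5 or HSD17B1-KI 7, and in the other fits the adjusted p was at most 0.103 while the log2 fold change stayed between 0.84 and 1.02.

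Hmox2 (ENSMUSG00000004070, chromosome 16, 4726361 to 4766742), the constitutive heme oxygenase, was at 2311 ± 399 normalized counts in HSD17B1-KI and 2398 ± 205 in WT (SD, n = 7 and n = 8). Its log2 fold change was -0.07 ± 0.09, with a 95% interval of -0.26 to 0.13, and it was not called (limma adjusted p = 0.863). The interval of Hmox2 lay wholly below that of Hmox1, and the difference between the 2 genes was not itself tested. Hmox2 shares 892 exon bases with Cdip1 on the opposite strand, which had 5322 to 8849 normalized counts. As it is not stated whether the counting used strand, reads there may also be split between the genes.

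Per kilobase of the median protein-coding transcript, the WT levels of the members ranged from 592 ± 87.4 normalized counts for Cpox to 3546 ± 649 for Urod, with Alas1 at 3490 ± 1347. The ranges of Urod (2783 to 4436) and Alas1 (2112 to 5465) overlapped, so their order is not resolved. Per kilobase of all annotated exons Cpox had the lowest mean, 275 ± 40.6, with a range that overlapped that of Fech (256 to 341). Hmox1 had the highest mean there, 1564 ± 395, with a range that overlapped that of Alad (1126 to 1896), so that the order at either end is not resolved and depends on the length used.

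The erythroid form of the first enzyme and blood cells were looked at beside these results. Alas2 was at 121 ± 31.7 normalized counts in HSD17B1-KI and 126 ± 48.3 in WT. Of 11 erythroid markers 10 had a row and 8 were tested, 0 of the 8 was called by limma or DESeq2, none was at 0 in every mouse, and their summed level was 1516 to 2580 normalized counts in HSD17B1-KI and 1194 to 4463 in WT. Slc4a1, a defining membrane gene of red cells, had a mean under 2 normalized counts in both genotypes. With the erythroid score added to the fit, the log2 fold change of Hmox1 was 0.86 with a limma adjusted p of 0.152, that of Alas1 was 0.87 (0.348) and that of Fech 0.27 (0.224), and 7 of all genes were called. Of 15 macrophage markers, cells that recycle heme from red cells, 0 was called, none was at 0, and their summed level was 19483 to 46403 normalized counts in HSD17B1-KI and 22345 to 37494 in WT. With the macrophage score as a covariate, Hmox1 had a log2 fold change of 0.98 (limma adjusted p = 0.0372) and Fech one of 0.34 (0.0376). Of the 6 markers of theca and interstitial cells, limma called 0. DESeq2 called 2, Insl3 and Nr5a1, both higher, against 1.59% of all genes called higher. The sum of the 6 markers was 32897 to 128331 normalized counts in HSD17B1-KI (median 116598) and 27166 to 66579 in WT (median 52071), and none was at 0. The ranges overlapped, and the exact permutation test of the sum gave p = 0.0378, not adjusted over the marker lists. Of 5 adipose markers 0 was called by limma or DESeq2, and their median log2 fold change was -1.62. At an unadjusted limma p under 0.05, 4 were lower, against 999 of 21525 genes, and 1 was higher, against 5.36% of all genes. The adipose sum was 2306 to 9312 normalized counts in HSD17B1-KI (median 3574) and 2478 to 10254 in WT (median 7831), and none was at 0. The part of theca, interstitial and adipose cells in the higher Alas1, Fech and Hmox1 was not tested. Oviduct markers, from tissue next to the ovary, summed to 1023 to 25295 normalized counts in HSD17B1-KI and 1099 to 231958 in WT, and 0 of 7 was called. With the oviduct score added to the fit, Hmox1 had a log2 fold change of 0.89 (limma adjusted p = 0.0447).

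Of the 35 other genes of the heme pathway that were listed, which cover regulators, transporters and accessory proteins, limma called 0 and DESeq2 called 3, all higher, against 1.59% of all genes called higher by DESeq2. At an unadjusted p under 0.05 limma gave 5 higher, against 5.36% of all genes, and 1 lower, against 999 of 21525 genes. Their median log2 fold change was 0.04. Slc48a1, a heme transporter of the endosome and lysosome, was at 5139 to 7537 normalized counts in HSD17B1-KI (median 5671) and at 3961 to 5063 in WT (median 4689). Its genotypes did not overlap, the log2 fold change was 0.35 ± 0.08, and the adjusted p was 0.0849 with limma and 0.00471 with DESeq2. Pgrmc1, a heme-binding membrane protein that interacts with FECH and with cytochromes P450, was at 14216 to 23548 normalized counts in HSD17B1-KI (median 16735) and at 10867 to 15649 in WT (median 12381). Its log2 fold change was 0.53 ± 0.12, with an adjusted p of 0.0835 with limma and 0.00294 with DESeq2. Iba57, a protein of mitochondrial iron-sulfur cluster assembly, was 1.19-fold higher (DESeq2 adjusted p = 0.029, limma 0.179). Left out 1 mouse at a time, DESeq2 called Slc48a1 and Pgrmc1 in 15 of 15 fits and Iba57 in 6 of 15. Among the regulators, Bach1, the heme-sensing repressor of Hmox1, was at 2126 ± 349 and 2260 ± 300 normalized counts, and Nfe2l2, which encodes the activator NRF2, at 7635 ± 685 and 7479 ± 546. Neither was called. Blvra, which turns biliverdin into bilirubin, had a log2 fold change of 0.22 ± 0.08 and was not called (limma adjusted p = 0.366).

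Of the 18 iron genes, limma called 0 and DESeq2 called 3, all higher, beside the 1.59% of all genes. At an unadjusted p under 0.05 limma gave 5 higher, beside 5.36% of all genes, and 0 lower. Their median log2 fold change was 0.17. Slc40a1, the iron exporter ferroportin, was at 4462 to 9101 normalized counts in HSD17B1-KI (median 6188) and at 2936 to 5177 in WT (median 4721), with a log2 fold change of 0.51 ± 0.14 (DESeq2 adjusted p = 0.034, limma 0.173). Fth1, the heavy chain of the iron store ferritin, was at 53926 to 82594 normalized counts in HSD17B1-KI (median 65004) and at 49894 to 55115 in WT (median 52899), with a log2 fold change of 0.30 ± 0.09 (DESeq2 adjusted p = 0.0416, limma 0.22). For both genes 6 of 7 HSD17B1-KI mice lay above every WT mouse. Iscu, the scaffold of iron-sulfur cluster assembly, was 1.33-fold higher (DESeq2 adjusted p = 0.0345, limma 0.175). These calls were less stable than those of Fech and Hmox1: with 1 mouse left out, DESeq2 called Slc40a1 in 9, Iscu in 5 and Fth1 in 3 of 15 fits. Tfrc, the transferrin receptor, was not called, with a log2 fold change of -0.37 ± 0.20.

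**Figure D2:**
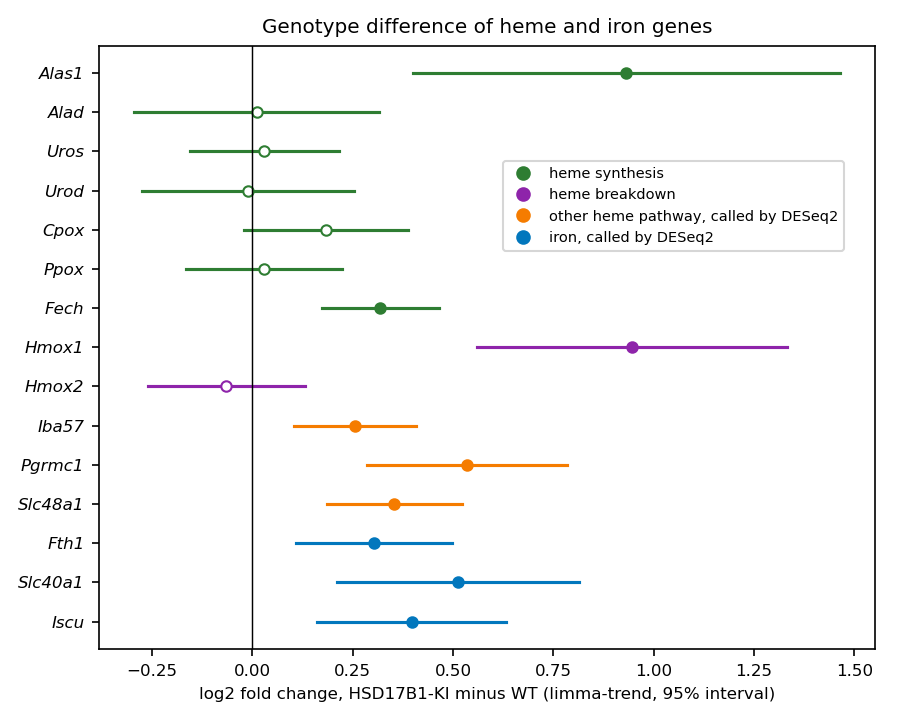
Log2 fold change of HSD17B1-KI minus WT with the 95% interval of limma-trend, for the 9 members and for the 6 other heme pathway and iron genes that DESeq2 called. Filled points were called by DESeq2, and colours give the group of genes. Among the members the intervals of Alas1, Fech and Hmox1 exclude 0, and those of the other 6 include it.

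The steroid enzymes that carry heme were not called between the genotypes. Of the 6 listed, limma called 0 of 5 tested and DESeq2 0 of the 4 to which it gave an adjusted p. At an unadjusted limma p under 0.05, 1 was higher, Cyp21a1, against 5.36% of all genes. Cyp11a1, which cuts the side chain of cholesterol, was at 193411 to 470912 normalized counts in HSD17B1-KI (median 342681) and at 153420 to 390701 in WT (median 291937), with a log2 fold change of 0.38 ± 0.24. Cyp17a1, the androgen-forming enzyme of theca cells, had a log2 fold change of 1.88 ± 1.55, and Cyp19a1, the aromatase of granulosa cells, one of 0.74 ± 0.65. Cyp17a1 was at 107 to 254 normalized counts in HSD17B1-KI 4, HSD17B1-KI 5, WT 3 and WT 6. In the other 11 mice it was at 24106 to 56551 in HSD17B1-KI and at 2033 to 21605 in WT. That difference within the 11 mice was not tested. By quantitative PCR, another measure, the study reported significantly higher Cyp17a1 in HSD17B1-KI ovaries of this age in estrus. Cyp11b1 had a log2 fold change of -0.88 ± 1.60, Cyp21a1 one of 1.20 ± 0.48 at a mean of 3.69 normalized counts, and Cyp11b2 fell below the filter. Cyp11b1 was split by the same 4 mice, at 1146 to 2325 normalized counts in them and 2.38 to 195 in the others. Of the 6 heme-free genes 0 was called. Star had a log2 fold change of 0.99 ± 0.57, Hsd3b1 of 0.20 ± 0.15, Hsd17b1 of 0.36 ± 0.24, Fdx1 of 0.50 ± 0.20, Fdxr of 0.05 ± 0.28 and Por of 0.25 ± 0.18.

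The members were then set against 3 of these enzymes across the mice, as correlations of log2(normalized count + 1). Of 27 pairs of a member with Cyp11a1, Cyp17a1 or Cyp19a1, 0 had an adjusted p under 0.05, where the adjustment was over all genes for each enzyme, and 7 had an unadjusted permutation p under 0.05. Among all genes, 0.887% were called with Cyp11a1, 0.107% with Cyp17a1 and 0% with Cyp19a1, each at an adjusted p under 0.05. The share of all genes with an unadjusted permutation p under 0.05 was not computed. The 7 pairs therefore cannot be read as an excess. For Cyp17a1 the mice fell into separate clusters, with a gap of 3.00 on the log2 scale: HSD17B1-KI 4, HSD17B1-KI 5, WT 3 and WT 6 had 107 to 254 normalized counts, and the other 11 mice had 2033 to 56551. Correlations with Cyp17a1 were therefore taken in those 11 mice.

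The sign of r with an enzyme differed between steps of the same pathway, and this difference was not tested. Urod followed Cyp11a1, with r = 0.69 (permutation p = 0.00489, adjusted p = 0.113) and rho = 0.79 (permutation p = 0.00077, adjusted p = 0.0679). Without WT 4 and WT 8, the mice farthest from the median of Cyp11a1, r was 0.55, and it was 0.34 within HSD17B1-KI and 0.98 within WT. With Cyp19a1, Urod ran in the opposite direction, with r = -0.66 (permutation p = 0.00755, adjusted p = 0.197) and rho = -0.76 (adjusted permutation p = 0.0722), and r was -0.76 without HSD17B1-KI 1 and HSD17B1-KI 7. Cpox followed Cyp19a1, with r = 0.78 (permutation p = 0.00066, adjusted p = 0.126) and rho = 0.76 (adjusted permutation p = 0.0704). That relation was 0.70 within HSD17B1-KI, 0.85 within WT and 0.72 without the 2 farthest mice. None of these pairs passed the adjustment over all genes. Cyp19a1 is also one of the 7 granulosa markers listed. Their summed level was 69706 to 207219 normalized counts in HSD17B1-KI and 84151 to 187551 in WT. The part of granulosa cells in the relations with Cyp19a1 was not tested.

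Alas1, the rate-limiting step, was at r = 0.59 with Cyp11a1 (permutation p = 0.0214, adjusted p = 0.182) and rho = 0.44 (permutation p = 0.106, adjusted p = 0.34). The relation rested on few mice: r was 0.34 without WT 4 and WT 8, -0.11 within HSD17B1-KI and 0.84 within WT. The difference between the genotypes was not tested. In the 11 mice with higher Cyp17a1, r of Alas1 with Cyp17a1 was 0.52 (permutation p = 0.104, adjusted p = 0.465), and it turned to -0.25 after each genotype was centred on its mean. Fech was at 0.54 there and turned to -0.19. With Cyp19a1, Alas1 was at r = 0.16, Fech at -0.07 and Hmox1 at -0.03.

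**Figure D3:**
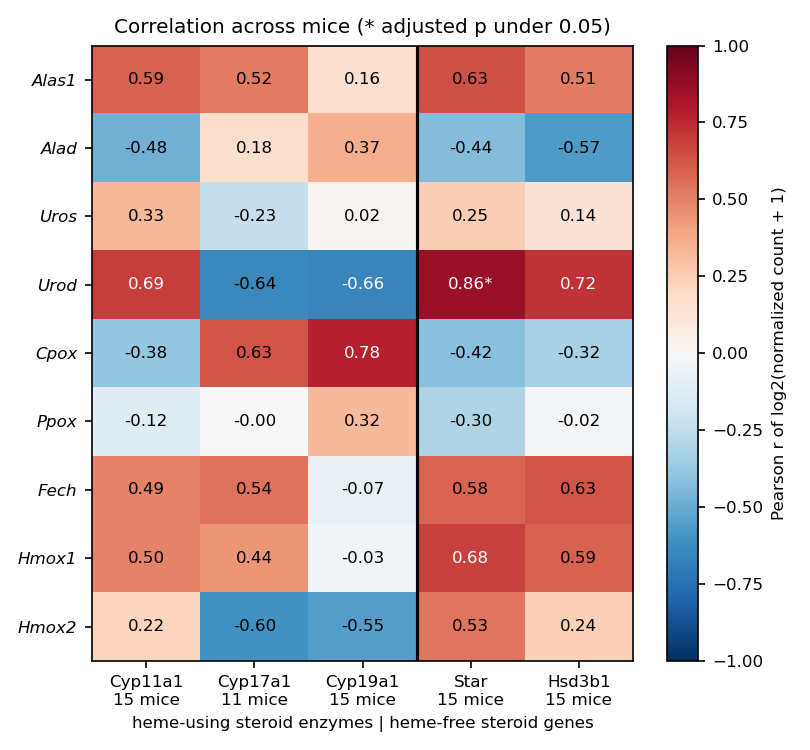
Pearson r across mice between each member (rows) and 3 heme-using enzymes and 2 heme-free steroid genes (columns), on log2(normalized count + 1). Colour runs from -1 to 1 and an asterisk marks an adjusted p under 0.05. Urod with Star, r = 0.86, is the only one of the 45 pairs so marked.

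The same was done with Star and Hsd3b1, which carry no heme, as a comparison. Of 18 pairs, 1 was called, Urod with Star. Here 8.56% of all genes were called with Star and 0.335% with Hsd3b1, so that being called with Star was common. Urod had r = 0.86 with Star (permutation p = 2e-05, adjusted p = 0.00489) and rho = 0.89 (permutation p = 3e-05, adjusted p = 0.00694). The value was 0.94 within HSD17B1-KI, 0.97 within WT, 0.95 after centring within genotype and 0.82 without WT 4 and WT 8. With each mouse left out in turn r lay between 0.83 and 0.89, and the adjusted p was at most 0.0234. Of all genes, 0.432% had an r with Star at least as high. Star ranged from 5151 normalized counts in WT 4 to 103552 in HSD17B1-KI 5, and Urod was at 2711 and 4467 normalized counts in the same mice. The 3 mice with the lowest Star, WT 4, WT 7 and WT 8, held the 3 lowest values of Urod. With Hsd3b1 Urod had r = 0.72 (permutation p = 0.00147, adjusted p = 0.0757). Star is also one of the 6 luteal markers listed, whose summed level was 92044 to 173566 normalized counts in HSD17B1-KI and 47247 to 212300 in WT, and the part of luteal tissue in this relation was not tested.

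**Figure D4:**
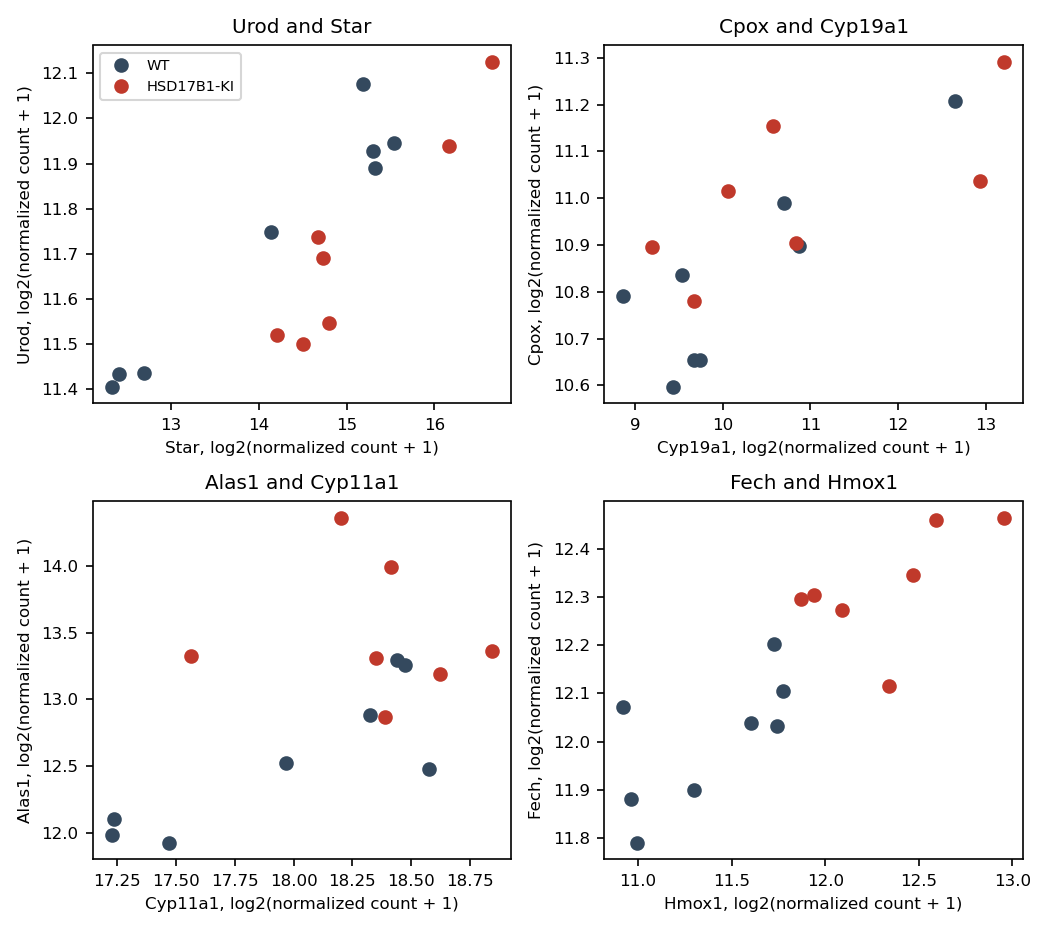
Levels of 4 pairs of genes in the 15 mice on log2(normalized count + 1), with WT in dark blue and HSD17B1-KI in red. Urod rises with Star in both genotypes (r = 0.94 and 0.97), Cpox rises with Cyp19a1 (r = 0.70 and 0.85), r of Alas1 with Cyp11a1 is 0.84 in WT and -0.11 in HSD17B1-KI (a difference that was not tested), and Fech rises with Hmox1 (r = 0.57 and 0.66).

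Among the members themselves, Fech and Hmox1 were related across the mice, with r = 0.86 (permutation p = 4e-05, adjusted p = 0.0269) and rho = 0.87 (permutation p = 6e-05, adjusted p = 0.0538). This was 1 of 8 other members called with Hmox1, against 0.534% of all genes. Both genes were also higher in HSD17B1-KI by DESeq2. After centring within genotype r was 0.62 and the adjusted permutation p was 0.254, and r was 0.57 within HSD17B1-KI and 0.66 within WT. Leaving out HSD17B1-KI 4, 5, 6 or 7 or WT 1, 4 or 8 ended the call, so that it held in 8 of 15 such fits, with an adjusted permutation p of up to 0.0903 (without WT 8). With Alas1, 0 of 8 members and 0% of all genes were called. Alas1 and Hmox1 had r = 0.73 (permutation p = 0.002), with an adjusted p of 0.288 over the genes compared with Alas1 and 0.109 over those compared with Hmox1, and r was 0.03 within HSD17B1-KI and 0.75 within WT.

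Ranked over the 15059 genes averaging 50 or more normalized counts, those most like Alas1 after centring within genotype (n = 15) were Osgin1 with r = 0.80, Amigo3 with 0.78, Ptrh2 with 0.78, Tab1 with 0.76 and Acot2 with 0.75. Those most like Hmox1 were Snx17 with 0.90, Cat with 0.89, Eif2b1 with 0.87, Mrpl43 with 0.87 and Acadm with 0.87. Cat encodes catalase, a heme enzyme, and Acadm a dehydrogenase of fatty acid oxidation. These lists are the tops of rankings and carry no test.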

How the data were processed

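Ovarian mRNA of 7 HSD17B1-KI and 8 WT mice was compared. The authors demultiplexed the reads with bcl2fastq 2.20, trimmed adapters, aligned to mm10 with STAR 2.7.3 and deposited the signal of each gene as a count divided by 1 size factor per library. The counting program and annotation release are not given in the sources used here. Whole reads were recovered for 100% of the 418605 values (tolerance 0.01). The members, lists and tests were chosen with earlier results of these data known. The unit was not raw counts, so the main test was limma-trend 3.58.1 on log2(normalized count + 1) over the 21525 genes averaging 2 or more, with two-sided p-values corrected after Benjamini-Hochberg over all of them and a threshold of 0.05, with genotype as the only term. DESeq2 1.42.0 (the method of the study) and edgeR 4.0.16 with TMM on the recovered reads were alternatives. DESeq2 gave 19790 genes an adjusted p. A fold change on this scale understates that of genes with few reads. Each library came from 1 mouse, and p-values measure the spread between these mice.

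Single members and the sums of the marker lists were tested with the exact permutation test over 6435 splits. Correlations used 100000 resamples (10000 for the pairs with the 3 enzymes when a mouse was left out) and were adjusted over all genes per anchor gene, in 61 pairs. Alternatives were other pseudocounts, filters and scalings, the replicate block, marker scores as covariates (luteal and macrophage scores added after seeing the data) and each mouse left out, for DESeq2 also added after seeing the data, as were the settings for the pairs of Star with Urod and Hmox1 with Fech. Genes named were the members, listed heme and iron genes called by limma or DESeq2 (Alas2, Bach1, Nfe2l2, Blvra and Tfrc, the marker genes Slc4a1, Insl3 and Nr5a1, and Cyc1, Nqo1, Gclc, Srxn1 and Slc7a11 of the other lists fall outside this rule and were named after their values were seen), the steroid genes, and the 5 genes most like Alas1 and the 5 most like Hmox1. When tested on data simulated for this comparison with 2-fold changes in 200 of 21525 genes, limma found 130 of them and made 3 false calls, edgeR found 145 and made 7, and DESeq2 found 151 and made 17. Positions and transcript lengths came from GENCODE M21. R 4.3.3, Python 3.11.15, NumPy 2.4.6, pandas 2.3.3 and SciPy 1.17.1 were used.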

Additional observations from a re-analysis of the deposited data

Results flagged for a closer look

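A mouse far from the others of its group, with a gap to its neighbour above the 95% limit of Dixon for the group's range, was found 6 times in 40 groups looked at (20 genes in 2 genotypes). Chance gives about 1 in 20 groups. Among the members, Alad was at 3877 normalized counts in HSD17B1-KI 1, with the next mouse at 2745. Uros was at 1376 normalized counts in WT 1, with the next at 1177. Hmox2 was at 3135 normalized counts in HSD17B1-KI 5, with the next at 2378. Among the steroid enzymes, Cyp19a1 was at 6444 normalized counts in WT 4, with the next at 1868. Cyp21a1 was at 22.1 normalized counts in HSD17B1-KI 1, with the next at 5.42, and at 5.7 in WT 4, with the next at 1.91. Without HSD17B1-KI 1 the log2 fold change of Alad was -0.09 and was not called.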

How the results depend on the processing

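With limma-trend 46 genes were called. The count was 28 with no filter, 28 with quantile normalization, 456 with DESeq2, 7 with the erythroid score and 349 with the luteal score as a covariate, and 6 to 139 with 1 mouse left out, lowest without HSD17B1-KI 2 and highest without HSD17B1-KI 5. The number of the 9 members called, 1 at first, was 0 with no filter, with quantile normalization and with the erythroid score, 3 with DESeq2, 2 with the luteal and 2 with the macrophage score (Fech in addition), and 0 to 1 with 1 mouse left out. With DESeq2 it was 2 to 3 with 1 mouse left out. With the replicate number as a replicate block, 0 genes and 0 members were called (Hmox1: log2 fold change 0.89, adjusted p = 0.267). What the numbers stand for is not stated in the sources used here. Deviations of same-numbered mice correlated at -0.76 to 0.72, and 1 of 7 HSD17B1-KI mice correlated best with its own number.

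Small differences changed sign: Uros with the luteal score (-0.00098) and from -0.015 to 0.077 with 1 mouse left out, Alad with the macrophage score (-0.025) and from -0.086 to 0.079, Urod with the macrophage score (0.023) and from -0.077 to 0.039, and Ppox from -0.016 to 0.077. After centring within genotype, r with Cyp17a1 turned to -0.25 for Alas1 and -0.19 for Fech. The number of pairs called with the 3 heme-using enzymes was 0 in every setting tried. The cause was not tested. Depth did not limit the members, whose lowest value was 931 normalized counts, but limits Cyp21a1, Cyp11b2 and Slc4a1.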

Other observations

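Of 22 other heme proteins that were listed, 21 were tested and 0 was called by limma or DESeq2, with a median log2 fold change of 0.11. At an unadjusted p under 0.05 limma gave 4 higher, against 5.36% of all genes, and 1 lower, against 999 of 21525 genes. Cat, among the genes most like Hmox1, had a log2 fold change of 0.23 ± 0.09 (limma adjusted p = 0.36). Cyc1, the heme protein cytochrome c1 of the respiratory chain, was at 7483 ± 728 normalized counts in HSD17B1-KI and 6537 ± 333 in WT, with 5 of 7 HSD17B1-KI mice above every WT mouse (limma adjusted p = 0.258, DESeq2 0.0814).

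Of 10 genes known as targets of NRF2, which also drives Hmox1, limma called 0. DESeq2 called 1 higher, Nqo1, a quinone reductase, against 1.59% of all genes called higher. Of the 10 genes, 7 had a log2 fold change above 0, with a median of 0.16. At an unadjusted p under 0.05 limma gave 3 higher, against 5.36% of all genes, and 0 lower, against 999 of 21525 genes. Nqo1 was at 582 ± 97.3 normalized counts in HSD17B1-KI and at 361 ± 94.1 in WT, 6 of 7 HSD17B1-KI mice lay above every WT mouse, and the log2 fold change was 0.72 ± 0.16 (DESeq2 adjusted p = 0.00559, limma 0.0885). Osgin1, the gene most like Alas1, had a log2 fold change of 0.72 ± 0.25 and was not called (DESeq2 adjusted p = 0.145). Gclc, Srxn1 and Slc7a11 had log2 fold changes of 0.28 ± 0.24, 0.14 ± 0.25 and -0.33 ± 0.29 and were not called.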
